A study of Mus musculus with 17 samples.

Results

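The taste receptor genes of the Tas1r and Tas2r families were described in sorted mouse medullary thymic epithelial cells. Members were all probe sets whose only gene symbol in the platform annotation begins with Tas1r or Tas2r. The rule found 38 probe sets for 37 genes, 3 Tas1r and 34 Tas2r, among the 19752 genes with a single-symbol probe set. Each gene was represented by 1 probe set, and only Tas2r117 had 2 to choose from, of which the one with the higher mean was used.

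Sweet, umami and bitter tastes are detected by G protein-coupled receptors. Tas1r3 is the shared subunit that pairs with Tas1r2 to form the sweet receptor and with Tas1r1 to form the umami receptor, while Tas2r proteins are the bitter receptors and are encoded by genes that lie largely in clusters. On the tongue both kinds signal through the G protein gustducin, whose alpha subunit is Gnat3, and then through the phospholipase Plcb2, the calcium release channel Itpr3 and the cation channel Trpm5. The same cascade is used by tuft cells, chemosensory epithelial cells of the gut and airways that depend on the POU-domain factor Pou2f3 and that also occur in the thymic medulla.

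RNA was measured on 17 whole-transcript gene arrays, 1 per sample, with medullary epithelial cells sorted as CD45- Ly51- MHCIIhi from mixed-sex C57BL/6 mice that all carry the Adig transgene, in which Aire regulatory sequence drives an Igrp-GFP reporter. Aire is the transcriptional regulator through which medullary cells display tissue-restricted antigens, and the study compared reporter-positive with reporter-negative cells, Aire wild type with knockout, and perinates with adults. The 6 groups held 3 arrays each of WT GFP-, WT GFP+ and Aire KO GFP+ cells from adults, and 2, 3 and 3 arrays of the same kinds of cell from perinates. Adults were 5 weeks old, perinates are labelled as 3 days old while the study's design text gives a range that begins at birth, and WT is read from titles that name no knockout. The labels do not say whether arrays of a group came from separate animals or from pools, so p-values measure the spread between these samples. No GFP- group of knockout cells was analysed here.

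The sequences just upstream of the genes were examined because many of the receptors moved together. RefSeq windows on GRCm38.p6, from 250 bases before to 50 bases after the annotated start, were available for 33 of the 37 genes. In 28 of them the gene model begins with the letters ATG, so the window may hold transcribed sequence of a gene whose true start lies further upstream. The octamer ATGCAAAT, an element recognised by POU-domain factors as a class, was searched on both strands and was found in 7 of 33 windows (21.2%), against 570 of 32851 windows of the same length from all genes (1.74%). The shorter form ATGCAAA, which every octamer contains, was in 12 of 33 windows (36.4%) against 4.63% of all windows. The TATAAA element was in 9 of 33 (27.3%) against 13.6%. Related genes of a cluster can share upstream sequence by descent, so the 33 windows are not independent. The windows of all genes were not matched to them in base composition. A match is a match of letters and no evidence of binding. The 7 stretches are shown on the strand of the gene, with the octamer or its reverse complement in capitals and 11 bases on each side.
Tas2r108: atccttgaaagATTTGCATctcagtaaaag
Tas2r137: cactgggcattATTTGCATctcaacaaaga
Tas2r118: gtgtaaggaggATTTGCATccacaaagaag
Tas2r135: gccttggcaatATTTGCATctgttctgaag
Tas2r126: gcccgggaaatATTTGCATcatatctgagc
Tas2r144: atcctttcataATTTGCATatcaaacctct
Tas2r107: ttgattgctaaATGCAAATagttccaaagg

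In 6 of the 7 genes the element lay in the same orientation, and in Tas2r107 it lay in the other. The stretches of Tas2r137 and Tas2r108, neighbouring genes, are at chr6:40491035-40491064 and chr6:40493435-40493464 on the plus strand, and their octamers end 184 and 138 bases before the annotated start. Those of Tas2r135 at chr6:42405375-42405404 and Tas2r126 at chr6:42434330-42434359, also neighbours on the plus strand, end 135 and 186 bases before it. The Tas2r118 stretch is at chr6:23970166-23970195 on the minus strand, with the octamer 116 bases before the start. The Tas2r144 stretch at chr6:42215160-42215189 on the plus strand has it 149 bases before, and the Tas2r107 stretch at chr6:131660367-131660396 on the minus strand has it 228 bases before.

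Tas1r3 is shown for contrast, as a receptor gene that moved like Tas2r108 and Tas2r137 without the octamer in its window. Its 250 bases upstream of the annotated start, at chr4:155863354-155863603 on the minus strand, hold 52.4% G and C.
Tas1r3: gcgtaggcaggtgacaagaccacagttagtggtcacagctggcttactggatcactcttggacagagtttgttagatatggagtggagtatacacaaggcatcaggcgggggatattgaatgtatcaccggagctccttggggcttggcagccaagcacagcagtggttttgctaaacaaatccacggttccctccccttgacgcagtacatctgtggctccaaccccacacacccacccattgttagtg

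Across the series, array medians lay between 144.5 and 157.1 intensity units. The perinate KO GFP+ arrays 2 and 3 stood apart from the others of their group. The Y-linked gene Uty was at 19.24 and 16.14 on them and at 168.9 to 366.2 elsewhere, and Xist was at 5203 and 5167 against 2104 to 4509, although every sample is labelled as mixed sex. Aire, the targeted gene, was at 4072 to 6000 on the KO arrays and at 4094 to 6196 on the WT GFP+ arrays, so this probe set does not separate the genotypes and checks no knockout label. It was at 270 to 930.1 on the GFP- arrays. The summed intensity of 12 medullary epithelial markers was 31013 to 49047 over all arrays, the lowest values being those of perinate GFP- cells. The sum of 5 cortical epithelial markers was 4929 to 5162 in perinate GFP- cells and 902 to 1738 in the other groups.

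Most taste receptor genes were dim. Counting a gene as above background where its probe set exceeded the 40th percentile of its array, 29 of 37 genes were above background on none of the 17 arrays. Tas2r135 was above it on 1 array, and the 7 genes Tas1r3, Tas2r108, Tas2r115, Tas2r117, Tas2r118, Tas2r137 and Tas2r138 on 2 or more. That percentile lay between 96.16 and 112.1 intensity units, while the members ran from 8.248 to 684.3. Adult GFP- cells had 5 genes above it on all 3 arrays, namely Tas1r3, Tas2r108, Tas2r117, Tas2r118 and Tas2r137. Perinate GFP- cells had 2, Tas1r3 and Tas2r108. In adult WT GFP+ cells no gene was above it on all arrays and Tas1r3 was above it on 1, whereas Tas1r3 was above it on all 3 arrays in each of the other GFP+ groups.

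Of the sweet and umami subunits, Tas1r3 stood out from its partners. On the adult GFP- arrays 6, 7 and 8 its intensity was 366.8, 563.8 and 647.0. Perinate GFP- arrays 1 and 2 gave 182.6 and 148.0. The 12 GFP+ arrays gave 94.6 to 134.4, so all 5 GFP- arrays lay above all GFP+ arrays. The partner subunits stayed near background everywhere. Tas1r1, the umami partner, was at 99.4, 91.5 and 89.3 in adult GFP- cells, at 80.9 and 93.0 in perinate GFP- cells and at 68.5 to 86.8 in GFP+ cells. Tas1r2, the sweet partner, was at 71.9, 85.7 and 75.4 in adult GFP- cells, at 88.5 and 90.3 in perinate GFP- cells and at 61.2 to 95.2 in GFP+ cells.

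Among the bitter receptors, Tas2r108 separated GFP- from GFP+ cells at both ages. Its intensity was 417.6, 684.3 and 628.4 in adult GFP- cells and 374.6 and 171.8 in perinate GFP- cells. All 12 GFP+ arrays lay between 37.6 and 50.8. The highest GFP+ array was therefore well below the lowest GFP- array at either age, and the perinate GFP- arrays differed more from each other than the GFP+ arrays did. Its neighbour Tas2r137 was at 296.6, 358.8 and 420.5 in adult GFP- cells, at 87.2 and 95.7 in perinate GFP- cells and at 43.6 to 63.3 in GFP+ cells. Tas2r118 was at 184.4, 361.6 and 218.2 in adult GFP- cells, at 97.9 and 70.5 in perinate GFP- cells and at 32 to 71.2 in GFP+ cells. In Tas2r118 the perinate GFP- array 2 and the adult KO GFP+ array 1 thus overlapped.

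The other bitter receptors above background had group means in the same order. Tas2r117 was at 190.2, 265.0 and 220.9 in adult GFP- cells, 86.2 and 74.1 in perinate GFP- cells and 48.2 to 61.5 in GFP+ cells. Tas2r115 was at 91.5, 174.5 and 158.0 in adult GFP- cells, 37.7 and 31.3 in perinate GFP- cells and 16.9 to 23.9 in GFP+ cells. Tas2r138, the mouse counterpart of the human receptor for phenylthiocarbamide, was at 93.8, 143.1 and 108.8 in adult GFP- cells, 94.5 and 84.0 in perinate GFP- cells and 66.1 to 80.1 in GFP+ cells. Tas2r138 thus varied least between groups among the bitter receptors above background.

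**Figure D1:**
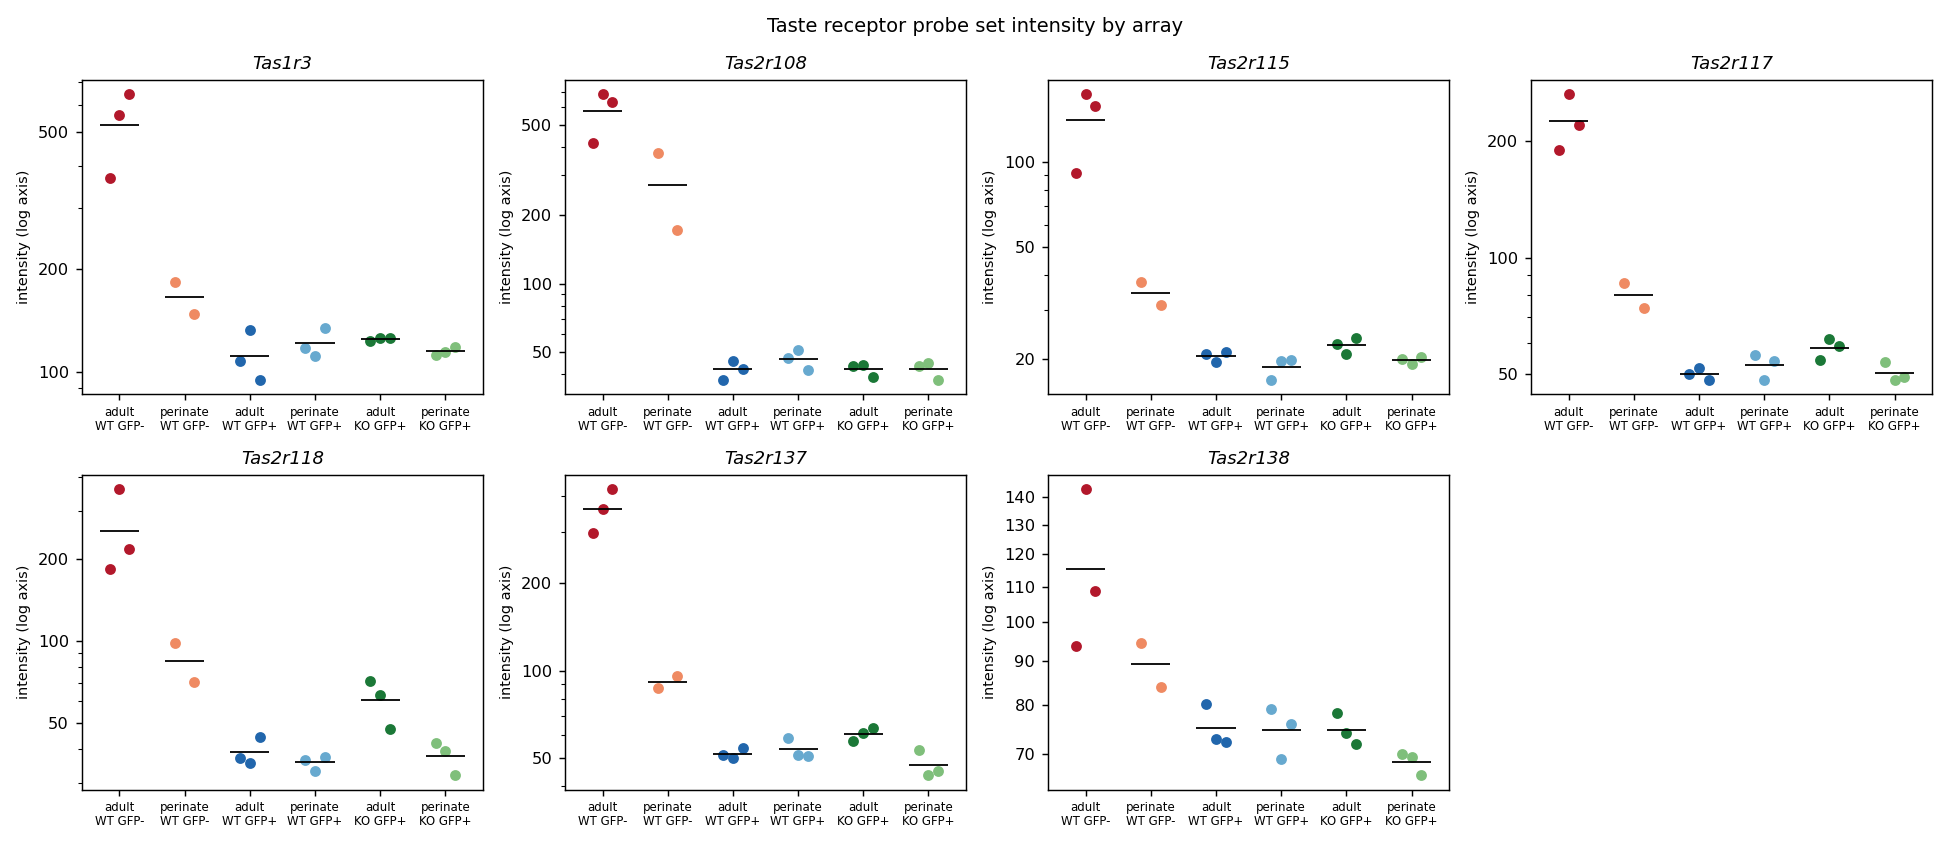
Intensity of the 7 taste receptor genes above background on each of the 17 arrays (log axis), by group, with 1 point per array and a line at each group mean. Except in Tas2r138, the 3 adult GFP- arrays were highest, with Tas2r108 at 417.6 to 684.3 there and at 37.6 to 50.8 in all GFP+ groups. In Tas2r138 adult GFP- array 6 (93.8) lay just below perinate GFP- array 1 (94.5).

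The first comparison asked which receptors differ between cells without and with the Aire reporter in WT adults. With all 19752 genes in the fit, 26 of 37 receptor genes were lower in GFP+ cells at an adjusted p under 0.05, and 0 were higher, against 16.6% and 20% of all genes. The median log2 difference was -0.53 over the 37 genes and -0.02 over all genes. The arrays of the groups did not overlap, with GFP+ below GFP-, for 32 of 37 genes, against 23.5% of all genes, and 0 lay the other way, against 25.5%. In these bulk samples, fewer cells that express a receptor and less of its RNA per cell cannot be told apart.

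The largest change was in Tas2r108, which fell by 3.76 ± 0.22 on the log2 scale (SE), 13.5-fold, with an adjusted p of 3.74e-09. Tas2r137 fell by 2.78 ± 0.12, Tas2r115 by 2.72 ± 0.17 and Tas2r118 by 2.65 ± 0.21, or 6.86-fold, 6.61-fold and 6.29-fold. Tas1r3 fell by 2.21 ± 0.17, 4.63-fold, with an adjusted p of 4.75e-08. Tas2r117 fell by 2.16 ± 0.12, 4.47-fold, and Tas2r138 by 0.60 ± 0.12, 1.51-fold, with an adjusted p of 0.000956. Of these 7 genes, Tas2r115, Tas2r117, Tas2r118, Tas2r137 and Tas2r138 were above background on adult GFP- arrays alone, so picking genes above background favours a difference from adult GFP- cells, and counts of receptors are given over all 37 genes. Apart from Tas1r3 on 1 array, all 7 were below background in adult WT GFP+ cells, so their folds depend on that floor. With GFP+ arrays set no lower than their 40th percentile, adult GFP- cells were at least 5.15-fold higher for Tas2r108, 4.38-fold for Tas1r3, 3.24-fold for Tas2r137, 2.23-fold for Tas2r118 and 2.04-fold for Tas2r117, but only 1.24-fold for Tas2r115 and 1.04-fold for Tas2r138.

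The dim receptors showed the same direction. Of the 30 genes below the filter, 19 (63.3%) were lower in GFP+ cells, against 9.48% of the 5910 genes that missed it. The largest differences among these were those of Tas2r105 at -1.64, Tas2r123 at -1.55 and Tas2r113 at -1.45 on the log2 scale. Tas2r105, a receptor for cycloheximide in mice, was at 40.5, 66.5 and 42.8 in adult GFP- cells and at 13.4, 15.1 and 18.9 in adult WT GFP+ cells, which did not overlap. Tas2r123 was at 42.6, 53.7 and 36.9 against 17.5, 12.7 and 15.1. Tas2r136 and Tas2r144 were at the other end, with a difference of 0.00 each, and neither Tas1r2 (-0.17) nor Tas2r119 (-0.33) was called. All these intensities were below the background percentile, where probe sets of related genes may also catch one another's RNA, which was not tested.

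**Figure D2:**
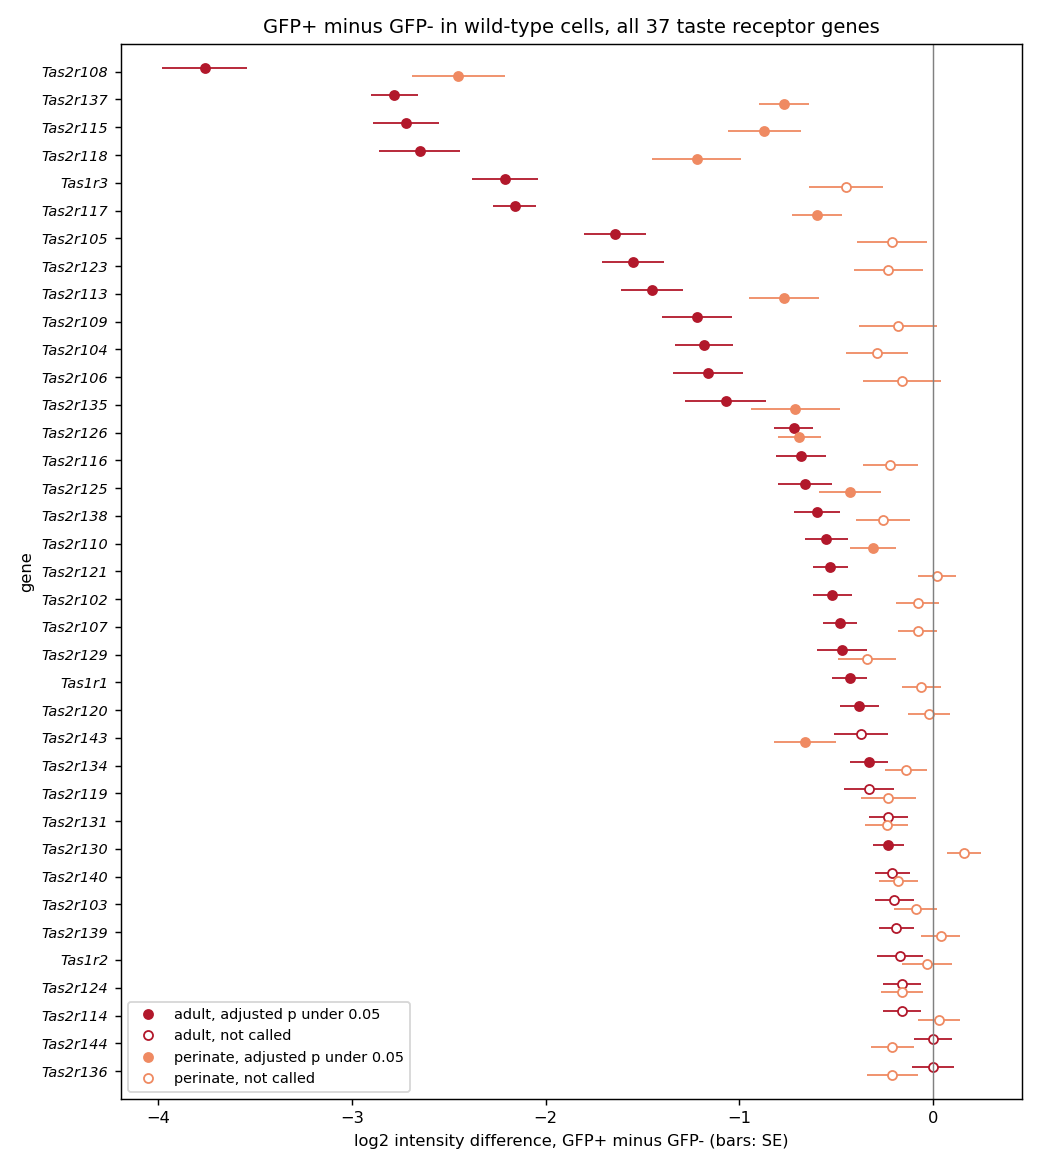
Log2 intensity difference of GFP+ minus GFP- cells for all 37 taste receptor genes in WT adults and in WT perinates, with bars for the SE and filled points where the adjusted p was under 0.05 with all genes tested. In adults 26 genes were lower and 0 higher, and in perinates 11 were lower and 0 higher.

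The bitter receptor genes were also ordered by position. On chromosome 6, which holds 32 of the 34 Tas2r genes, gaps of over 1 Mb separate Tas2r118 alone, a run of 3 genes (Tas2r137, Tas2r108 and Tas2r138), a run of 5 (Tas2r139, Tas2r144, Tas2r143, Tas2r135 and Tas2r126) and a run of 23. With all genes tested, 16.6% of all 19752 genes were lower in adult GFP+ cells. In the run of 3, all 3 members were lower, with a median log2 difference of -2.78. The run of 5 had 2 of 5 lower, Tas2r135 and Tas2r126, with a median of -0.37. The run of 23 had 17 lower, with a median of -0.53 and a range from -2.72 to 0.00. Whether the runs differ was not tested. Neighbours within that run thus ranged from no difference, in Tas2r136, to a difference of -2.72, in Tas2r115. Of the 7 genes whose window holds the octamer, 6 were lower, with a median of -1.07. Of the 26 genes whose window lacks it, 17 were lower, with a median of -0.45. Whether genes with and without the octamer differ was not tested. The exception among the 7 was Tas2r144, and Tas2r115, Tas2r117 and Tas1r3 differed by over 2 on the log2 scale without an octamer match, Tas2r117 for want of a window.

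**Figure D3:**
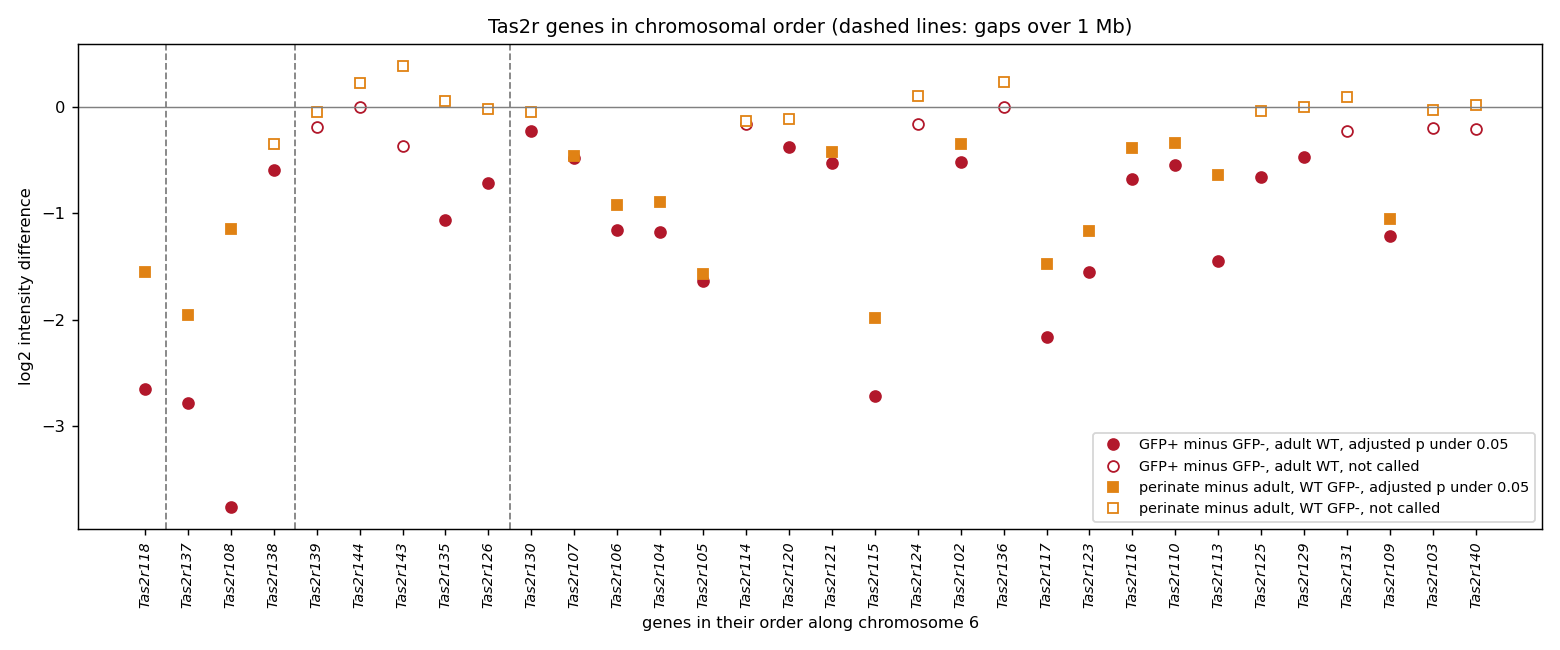
Log2 intensity differences of the 32 Tas2r genes of chromosome 6 in their order along it, for GFP+ minus GFP- adult WT cells (circles) and for perinate minus adult WT GFP- cells (squares), filled where the adjusted p was under 0.05 with all genes tested. Both differences reached -1.15 or below in Tas2r118, Tas2r137, Tas2r108, Tas2r105, Tas2r115, Tas2r117 and Tas2r123. The genes of the run from Tas2r139 to Tas2r126 showed no called age difference.

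The same contrast in WT perinates gave fewer and smaller differences. With all genes in the fit, 11 of 37 receptor genes were lower in GFP+ cells and 0 higher, against 15.9% and 18.2% of all genes. The median log2 difference was -0.22 over the members and 0.00 over all genes. The groups did not overlap, with GFP+ lower, for 20 genes (24.7% of all genes), and lay the other way for 1, Tas2r130 (25.9%). Tas2r108 fell by 2.45 ± 0.25 on the log2 scale, 5.47-fold, with an adjusted p of 4.99e-07. Tas2r118 fell by 1.22 ± 0.24, Tas2r115 by 0.87 ± 0.19, Tas2r137 by 0.77 ± 0.14 and Tas2r117 by 0.60. Of these 5 genes, Tas2r108 alone was above background on the perinate GFP- arrays, and it was at least 2.29-fold higher there than the background percentile of the GFP+ arrays. The log2 difference of Tas1r3 was -0.45 ± 0.19 with an adjusted p of 0.067, although its arrays did not overlap, and with arrays centred on their medians or quantile-normalized the adjusted p was 0.0492 or 0.0336.

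The remaining 6 genes called in perinates were dim. They were Tas2r113, Tas2r110 and Tas2r125 of the run of 23 and the adjacent Tas2r143, Tas2r135 and Tas2r126 of the run of 5. Tas2r126 was at 82.1 and 68.1 in perinate GFP- cells and at 46.7, 45.9 and 46.5 in perinate WT GFP+ cells, a difference of -0.69 ± 0.11 on the log2 scale with an adjusted p of 0.000127. Tas2r143 was at 54.9 and 52.9 against 40.8, 28.3 and 34.3. Tas2r135 was at 96.8 and 70.2 against 56.7, 44.1 and 51.0. None of these 3 genes overlapped between the groups. Without perinate GFP- array 1, Tas2r110, Tas2r113, Tas2r125 and Tas2r135 were no longer called, with adjusted p-values of 0.342, 0.102, 0.711 and 0.237. The calls of Tas2r110, Tas2r125 and Tas2r135 were also lost without 1 or another of the perinate WT GFP+ arrays.

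The difference between the contrasts was tested directly. With all genes tested, the perinate minus adult change of the GFP+ to GFP- log2 difference was above 0 for 13 of 37 genes. It was below 0 for none, against 7.83% above and 6.67% below over all genes. For genes lower in adult GFP+ cells, a change above 0 makes the difference smaller or turns it the other way, as in Tas2r130. The change was 2.01 ± 0.18 in Tas2r137, 1.85 ± 0.26 in Tas2r115, 1.76 ± 0.25 in Tas1r3 and 1.31 ± 0.33 in Tas2r108. The Tas2r108 change had an adjusted p of 0.00982, which rested on perinate GFP- array 2, since without that array it was 0.74 with an adjusted p of 0.0691. Tas2r115 and Tas2r137 were above background on adult GFP- arrays alone, and their perinate differences are between levels below it.

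Perinate and adult GFP- cells were also compared directly. Perinate GFP- cells were lower than adult GFP- cells for 17 of 37 receptor genes and higher for 0, with all genes tested, against 18.2% and 17.1% of all genes. The groups did not overlap for 18 genes with perinates lower (24.9%) and for 4 with perinates higher (27.3%). Tas2r115 fell by 1.99 ± 0.19 on the log2 scale, Tas2r137 by 1.96 ± 0.14, Tas1r3 by 1.64 ± 0.19 and Tas2r118 by 1.55 ± 0.24, or 3.96-fold, 3.89-fold, 3.11-fold and 2.94-fold. Tas2r108 fell by 1.15 ± 0.25, 2.22-fold, with an adjusted p of 0.00102. Without perinate GFP- array 2 its difference was -0.59 with an adjusted p of 0.0427, or 0.0502 with all genes tested. Tas2r138 differed by -0.35 with an adjusted p of 0.0505. In perinate GFP- cells, Tas1r3 and Tas2r108 alone of these genes were above background, so the folds of the others depend on the floor. Without perinate GFP- array 2 the count of lower genes was 12.

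Not every receptor was lower at the younger age. The 3 adjacent genes Tas2r143, Tas2r135 and Tas2r126 differed from adult GFP- cells by 0.38 ± 0.16, 0.05 ± 0.23 and -0.02 ± 0.11 on the log2 scale. Their adjusted p-values were 0.0718, 0.9 and 0.915. These genes were singled out after their values were seen. Marker genes moved with the same comparison. Of 12 medullary epithelial markers 9 were lower in perinate GFP- cells, against 18.2% of all genes. Of 5 cortical epithelial markers 4 were higher, against 17.1% of all genes. The myeloid marker sum was 619 to 672 in perinate GFP- cells against 4677 to 5398 in adult GFP- cells. Most of that sum was Lyz2, the lysozyme gene, at 196.2 and 199.1 against 3941 to 4659, and the other 6 myeloid markers summed to 423.2 and 473 against 735.4 to 896.2. Their part in the receptor differences was not tested.

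Within GFP+ cells, few receptors differed between the ages. In WT, with all genes tested, 3 of 37 were higher in perinates and 0 lower, against 7.12% and 10.4%. They were Tas1r1, by 0.27 on the log2 scale, Tas1r2, by 0.34, and Tas2r130, and with any 1 array left out 1 to 2 were called. In KO cells, Tas2r118 fell by 0.67 ± 0.21 and Tas2r137 by 0.36 ± 0.12 from adult to perinate on the log2 scale, with adjusted p-values of 0.0283 and 0.0359. With all genes tested these were 2 of 37 genes lower and 0 higher, against 9.29% and 9.09%. Neither was called with quantile normalization or log2(intensity + 32). Tas2r118 was not called without adult KO array 1 or 2, or without perinate KO array 2 or 3. Tas2r137 was not called without adult KO array 2 or 3, or without perinate KO array 2 or 3. Without both perinate KO arrays 2 and 3, those with low Uty and high Xist, the differences were -0.5 in Tas2r118 and -0.19 in Tas2r137. Tas1r1, Tas1r2, Tas2r130, Tas2r118 and Tas2r137 lay below background on every GFP+ array.

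The knockout comparisons asked whether the receptors depend on Aire in reporter-positive cells. In adults, with all genes tested, 1 of 37 receptors was higher in KO cells, Tas2r118, and 0 were lower, against 7.57% and 11% of all genes. At an unadjusted p under 0.05, limma had 3 higher and 0 lower, and the share of all genes at that threshold was not counted. No receptor but Tas1r3 was above background on any GFP+ array of either genotype, so a lower level in KO cells could hardly have been measured. Tas2r118 was at 71.2, 63.0 and 47.2 on adult KO arrays 1, 2 and 3 and at 37.1, 35.5 and 44.4 on adult WT GFP+ arrays, which did not overlap. It rose by 0.62 ± 0.21 on the log2 scale, 1.54-fold, with an adjusted p of 0.0481. That call was lost without any of the 3 WT arrays or without KO array 1 or 2, with adjusted p-values from 0.0558 to 0.172, and with log2(intensity + 32), where the difference was 0.37 with an adjusted p of 0.131. All these Tas2r118 intensities lay below background. With KO arrays above WT arrays, 11 of 37 genes did not overlap, against 21.5% of all genes, and 0 lay the other way, against 17.3%. The median log2 difference over the 37 genes was 0.13, against 0.05 over all genes.

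In perinates, with all genes tested, 1 of the 37 genes was lower in perinate KO cells and 0 were higher, against 14.3% and 10.1% of genes. That gene was Tas1r2, which fell by 0.39 ± 0.12 with an adjusted p of 0.0209. It was at 65.6, 72.8 and 62.8 on the KO arrays and at 95.2, 81.8 and 86.8 on the WT arrays, all of them below background, and it was not called without perinate WT array 5, or without KO array 1 or 3, or without KO arrays 2 and 3 together, with adjusted p-values from 0.0541 to 0.147. Over the 37 genes, log2 differences ran from -0.39 to 0.21, and their 95% confidence intervals reached from -0.63 to 0.56. In adults they ran from -0.08 to 0.62, within bounds of -0.45 and 1.06. The knockout effect was called as different between the ages by limma for 0 of 37 genes, against 0.506% of all genes in one direction and 0.749% in the other. At an unadjusted p under 0.05, 5 receptors had a lower KO effect in perinates and 0 a higher one. The share of all genes at that threshold was not counted, so no direction is read from these counts.

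**Figure D4:**
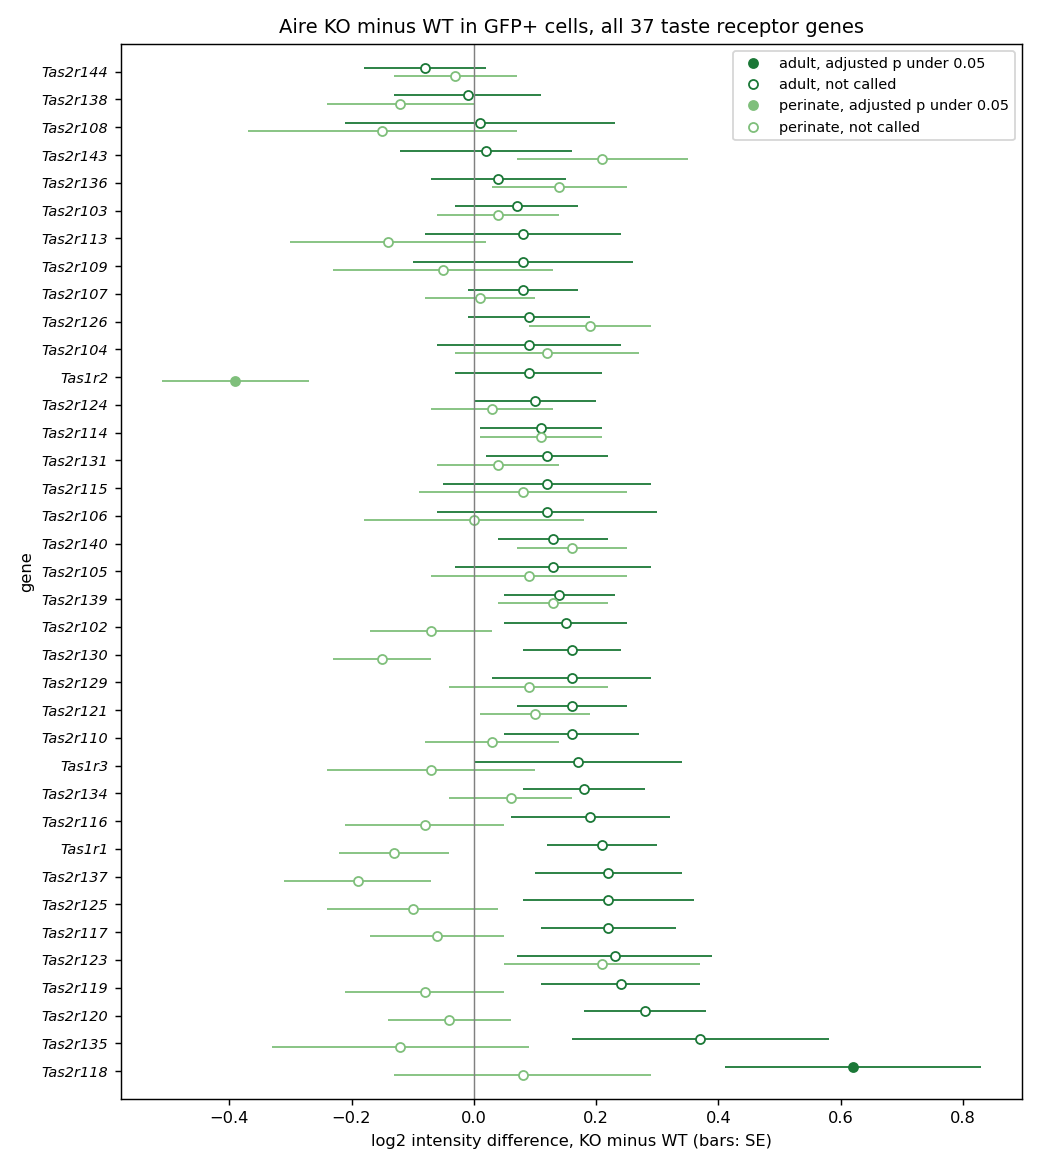
Log2 intensity difference of Aire KO minus WT GFP+ cells for all 37 taste receptor genes in adults and perinates, with bars for the SE and filled points where the adjusted p was under 0.05 with all genes tested. Tas2r118 in adults (0.62) and Tas1r2 in perinates (-0.39) are the filled points.

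The genes that carry the receptor signal forward followed the GFP contrast. Of 15 genes of taste signal transduction 14 were measured, and in adults, with all genes tested, 8 of 14 were lower and 1 was higher in GFP+ cells, against the 16.6% and 20% of all genes given above. Gnat3, the gustducin alpha subunit, was at 700.9, 1000.3 and 1345.3 in adult GFP- cells and at 48.4, 41.2 and 46.4 in adult WT GFP+ cells, which lay below background, so that the 21.7-fold difference of the means depends on the floor and is at least 8.95-fold against the 40th percentile. Plcb2, the phospholipase, was at 1538.0, 2203.4 and 2351.3 against 117.1, 92.6 and 134.9, or 17.6-fold. Trpm5, the cation channel, was at 1505.5, 2151.8 and 2065.0 against 118.7, 108.0 and 121.2, or 16.3-fold. Gnb3, the beta subunit, was 8.74-fold lower in GFP+ cells. The 1 gene higher in GFP+ cells was the sodium channel Scn9a, 4.03-fold. Itpr3, which is also widely expressed outside taste cells and is named for its place in the cascade, was not called in adults, with a log2 difference of 0.16 ± 0.10.

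In perinates 7 of the 14 were lower and 2 higher in GFP+ cells, against 15.9% and 18.2% of all genes. Gnat3 was at 1079.0 and 422.2 in perinate GFP- cells and at 32.6, 83.8 and 30.4 in perinate WT GFP+ cells, or 15.5-fold and at least 6.09-fold against the 40th percentile. The 15.5-fold difference was 9.67-fold without perinate GFP- array 1 and 24.7-fold without array 2. Rgs21, a regulator of G protein signalling found in taste cells, was at 168.4 and 50.6 against 17.5, 25.7 and 15.6. Its 4.83-fold difference was 8.81-fold without perinate GFP- array 2, and without array 1 it was not above background on enough arrays to be tested. Rgs21 lay below background on perinate GFP- array 2 and on all perinate WT GFP+ arrays, so these folds depend on the floor. Plcb2 differed 4.12-fold. Trpm5, 2.15-fold lower, was not called without perinate GFP- array 1, with an adjusted p of 0.0605.

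Within GFP- cells, parts of the cascade differed by age and others were not called. Trpm5 was at 408.2 and 201.4 in perinates, 6.57-fold below adults, and the gamma subunit Gng13 was at 243.9 and 180.4, 3.78-fold below. Plcb2 was 3.49-fold and Gnb3 2.92-fold lower. Gnat3 averaged 750.6 ± 464 (SD, n = 2) in perinates and 1016 ± 322 (SD, n = 3) in adults, which was not called. In this comparison, with all genes tested, 7 of 14 genes were lower and 1, Gna14, was higher, against 18.2% and 17.1% of all genes. Gna14 was not called without perinate GFP- array 1.

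**Figure D5:**
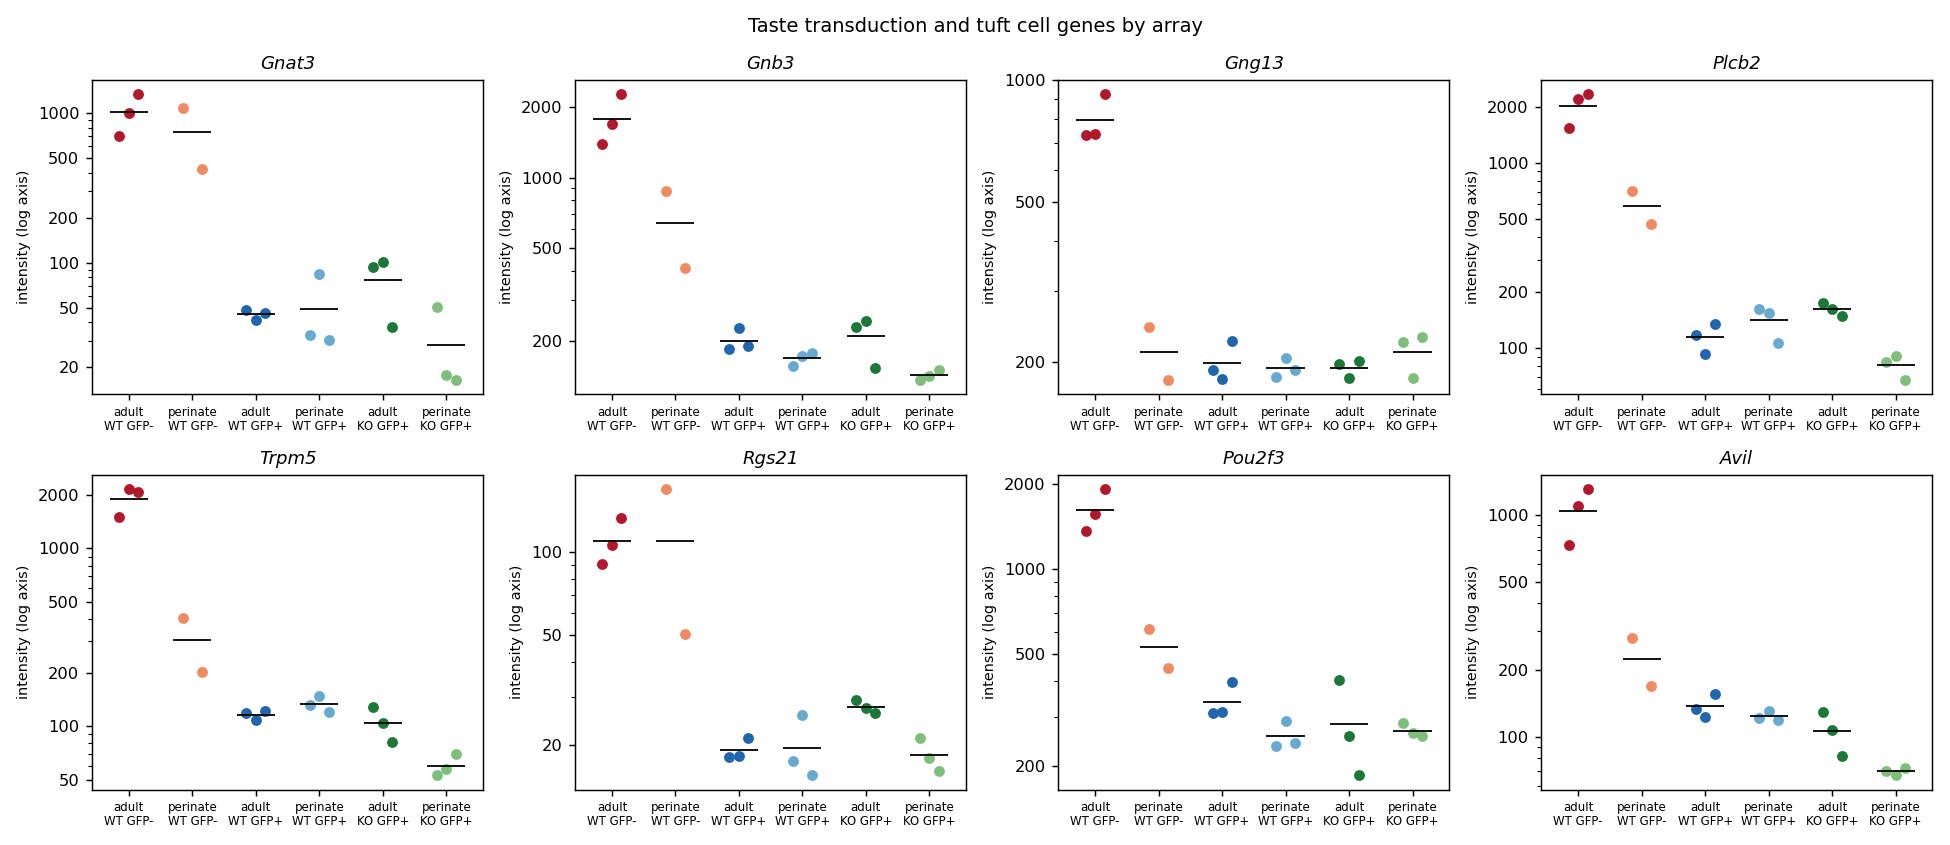
Intensity of 6 taste transduction genes and of the tuft cell genes Pou2f3 and Avil on each of the 17 arrays (log axis), by group, with 1 point per array and a line at each group mean. Gnat3 was at 422.2 and 1079.0 in perinate GFP- cells, beside 700.9 to 1345.3 in adults, whereas Trpm5 was at 201.4 and 408.2 beside 1505.5 to 2151.8.

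In adult knockout cells, 0 of the 14 transduction genes were called lower or higher by limma, against 11% and 7.57% of all genes. At an unadjusted p under 0.05 limma had 1 lower and 2 higher, again without a count of all genes. In perinates 3 of 14 were lower in KO cells and 3 were higher, against 14.3% and 10.1% of all genes. The lower ones were Trpm5 by 1.16 ± 0.22, Plcb2 by 0.80 ± 0.20 and Scn2a by 0.35 ± 0.09 on the log2 scale. All 3 lay below background on every perinate KO array, so these sizes depend on the floor. Scn2a was above background on only 1 perinate WT GFP+ array. Scn9a and Gna14 were among the higher ones. Gna14 was not called with any 1 of the 6 arrays left out, with adjusted p-values from 0.0509 to 0.112, and Scn2a was not called without WT array 5 or KO array 3. With all genes tested, limma called the knockout effect lower in perinates than in adults for 1 of 14 genes and higher for 0. The shares of all genes were 0.506% and 0.749%. Above background, Plcb2 alone was called, with a change of -1.31 and an adjusted p of 0.0392. That call was lost without any 1 adult array of this test, perinate WT array 5 or 6, or perinate KO array 2 or 3. The adjusted p-values were then 0.0529 to 0.0969. Trpm5 was at 53.0, 57.4 and 69.8 on the perinate KO arrays and at 131.4, 148.8 and 120.9 on the perinate WT GFP+ arrays, without overlap. Without perinate KO arrays 2 and 3, Plcb2, Scn2a, Scn9a and Gna14 were no longer called, with adjusted p-values of 0.153, 0.161, 0.0506 and 0.165.

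Tuft cell markers were counted in the same comparisons. With all genes tested, 19 of 23 measured markers were lower in adult GFP+ cells and 0 higher, against 16.6% and 20% of all genes. Rgs13 and the kinase Bmx were among the lower ones. Both lay below background in adult WT GFP+ cells, and adult GFP- cells were at least 18.3-fold and 4.62-fold above the 40th percentile there. The master regulator Pou2f3, named for its part in the lineage, was at 1364.7, 1564.2 and 1915.4 in adult GFP- cells and at 309.9, 310.9 and 396.4 in adult WT GFP+ cells. The summed intensity of the markers was 15077 to 20479 in adult GFP- cells, 4874 to 6545 in perinate GFP- cells and 4769 to 6144 in the GFP+ groups. Much of the sum in GFP+ cells was Spib, a factor also found in other medullary cells, at 2086.3 to 3358.1 there and at 1009.7 and 1282.0 in perinate GFP- cells. Without Spib the sums were 12870 to 17611, 3592 to 5535 and 2434 to 3521, so that perinate GFP- arrays lay above all GFP+ arrays. The sum over the 37 taste receptors was 2694 to 3811, 1641 to 1963 and 1111 to 1271 in the same order of groups. Adult GFP- array 6 was the lowest of its group in both sums. The share of tuft cells in each sort is not known from bulk RNA, and its part in the receptor differences was not tested. In the perinate GFP contrast 12 of 23 markers were lower in GFP+ cells and 2, Spib and Gfi1b, were higher, against 15.9% and 18.2% of all genes. Perinate GFP- cells had 20 of 23 markers below adult GFP- cells and 0 above, against 18.2% and 17.1% of all genes. In perinate KO cells 4 of 23 (17.4%) were lower and 0 higher, against 14.3% and 10.1% of all genes. The share of markers called lower was thus close to that of all genes. Trpm5, Avil and Sh2d6 were among the 4, and 1 of 37 receptors was called in the same comparison. Trpm5 belongs to this list and to that of taste transduction.

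Other chemosensory families were set beside the taste receptors in the adult GFP contrast. With all genes tested, 72 of 1027 olfactory receptor genes (7.01%) were lower in adult GFP+ cells, with a median log2 difference of -0.10, beside 26 of 37 taste receptor genes (70.3%) with a median of -0.53. The vomeronasal Vmn1r family had 5 of 117 lower (4.27%), the Vmn2r family 0 of 46 and the Taar family 0 of 13. Over all genes 16.6% were lower, and of the genes that missed the filter 9.48%. These families were almost wholly below background, and whether their shares differ from that of the taste receptors was not tested. Of 13 genes of sour and salt taste and of supporting taste cells, 2 were lower and 5 higher in adult GFP+ cells with all genes tested, against the same 16.6% and 20% of all genes. Among them were the sodium channel subunit Scnn1a, 3.00-fold lower, and the carbonic anhydrase Car4, 2.21-fold higher. Of 8 nutrient sensors of other families, 2 (25%) were lower and 2 higher, not far from the 16.6% and 20% of all genes. Among them the calcium-sensing receptor Casr was 1.81-fold lower and the glutamate receptor Grm4 1.59-fold higher.

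The second probe set of Tas2r117, below background on every array, was set beside the one used. It read 54.4, 49.5 and 76.7 in adult GFP- cells, 14.1 and 13.8 in perinate GFP- cells and about 10 in GFP+ cells. Its log2 difference of GFP+ from GFP- cells was -2.51 in adults and -0.47 in perinates, beside -2.16 and -0.60 for the probe set used, and perinate minus adult GFP- cells gave -2.08 beside -1.48. The sign was the same in all 3 comparisons, and the sizes differed.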

How the data were processed

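RNA of 17 samples was measured on whole-transcript Affymetrix gene arrays for mouse. The authors deposited linear probe set intensities made with Affymetrix Power Tools and RMA, which corrects background, normalizes and summarises probes, per the submitters' processing notes. Their versions are not given in sources used here. The letters of the probes were not used. All columns of values were used.

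Log2 values were taken without a pseudocount. The test above background took genes whose probe set exceeded the array's 40th percentile on 2 or more arrays, leaving 13842 of 19752 genes and 7 of 37 members. Because this filter favours genes high in 1 group, counts over all 37 members come from the same model on all 19752 genes. The model of 6 group means was fitted over all 17 arrays with limma 3.58.1 in R 4.3.3, with 9 contrasts. P-values are two-sided, from limma's moderated test, adjusted by Benjamini-Hochberg over all genes of a contrast and called under 0.05. The fit was tested on simulated data. Leaving out arrays with all genes tested, folds against the 40th percentile as a floor, and marker sums without Spib or Lyz2 were added after seeing the data. Fold changes are the ratio of geometric means. Values on every array were given for members called above background, for the 5 members with the highest mean and for all Tas1r genes, with other members given where they were singled out after their values were seen. From lists of other genes, at most the 4 largest called differences per comparison were named, with exceptions marked. The members, lists and motifs were chosen with earlier results of these data known.

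Sequences are from RefSeq (GRCm38.p6). Those of 4 members without a window were not analysed here. Adult WT GFP+ and GFP- arrays share the numbers 6, 7 and 8. The deviations of same-numbered arrays from their group means correlated at 0.503, 0.442 and 0.188, and those of differently numbered arrays at -0.439 to 0.097. The numbers may pair the samples, but their meaning is not stated. The reported model is unpaired and has no term for them. A block on the numbers was an alternative fit of genes above background, so counts over all members were not fitted with it.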

Additional observations from a re-analysis of the deposited data

Results flagged for a closer look

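The GFP+ minus GFP- log2 difference depended on age for 6 of the 7 receptor genes tested above background, by limma's test of the perinate minus adult difference itself, and all 6 were closer to 0 in perinates. The change was 1.76 for Tas1r3 (adjusted p 0.000142), 1.31 for Tas2r108 (0.00982), 1.85 for Tas2r115 (0.000116), 1.56 for Tas2r117 (1.71e-05), 1.43 for Tas2r118 (0.00411) and 2.01 for Tas2r137 (1.96e-06). GFP+ cells of both ages lay close together for these genes, and adult GFP- cells lay above perinate GFP- cells. Tas2r115, Tas2r117, Tas2r118 and Tas2r137 were above background on adult GFP- arrays alone, so they entered this test through the group in which they are high. With all genes tested, the change was above 0 for 13 of the 37 receptors, against 7.83% of all genes. The Tas2r108 change was 0.74 with an adjusted p of 0.0691 without perinate GFP- array 2. Perinate GFP- cells rest on 2 arrays. Groups of 2 or 3 arrays are too small for a test of single outlying arrays.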

How the results depend on the processing

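Of the calls for single members, 848 alternative values kept their side of the threshold, 22 lost it and 6 gained it. Among called values 0 changed sign, and sign changes of values not called were counted among the 848. The counts here, over members above background unless a setting without a filter is named, moved mainly with the filter, because at the 60th percentile only 3 members were tested. Without a filter and at the 60th percentile, the counts were 26 and 3 for the adult GFP contrast (7 as reported), 11 and 2 for the perinate one (5), 13 and 3 for their difference (6) and 17 and 3 for age in GFP- cells (6). The knockout count was 0 in adults at the 60th percentile and with log2(intensity + 32), against 1, and 1 in perinates without a filter, against 0. Age in WT GFP+ cells gave 3 without a filter, against 0. Age in KO cells gave 1 at the 60th percentile, 0 with quantile normalization or log2(intensity + 32), 1 with the replicate block and 0 without perinate KO arrays 2 and 3, against 2.

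With all genes tested and 1 array left out at a time, 23 to 28 members were lower in the adult GFP contrast, 8 to 11 in the perinate one and 12 to 17 in perinate GFP- cells. Above background, the counts ran from 5 to 7 for the adult GFP contrast, 5 to 6 for the difference between ages, 5 to 7 for age in GFP- cells, 0 to 1 for the adult knockout and 0 to 2 for age in KO cells. Without adult GFP- array 7 or 8, Tas2r115 and Tas2r138 no longer entered the test. The replicate block changed no call of the 7 members in the adult GFP contrast. Numbers shared across ages were not taken as pairs. Same-numbered arrays there correlated at 0.033 and 0.19 in WT and at 0.039 to 0.059 in KO cells. A block on those numbers lowered the WT age count over all genes from 3067 to 1730. Over all genes, the perinate knockout count of 3664 was 2129 at the 60th percentile, 2407 without perinate WT array 5, 2396 without perinate KO array 2 and 1153 without KO arrays 2 and 3. The 167 genes whose knockout effect differed by age became 86 at the 60th percentile, 812 with array weights, 45 without KO arrays 2 and 3 and as few as 49 without 1 array. Age in KO cells went from 3601 to 1867 without those arrays. The number of arrays limits the precision, and most members lay below background. Beyond the filter and the arrays left out, the cause of these shifts was not tested.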
